A study of Mus musculus with 12 samples.

Results

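The BTG/TOB antiproliferative family was followed in mouse hippocampal slices after chemical long-term potentiation (LTP). Its members here were Btg1, Btg2, Btg3, Tob1 and Tob2, 5 of the 41091 gene IDs in each count table, found by Ensembl ID through GENCODE M21. The family was chosen by the measured values of Btg2 itself, a large rise after LTP that was smaller at the later time. All Btg2 contrasts below are therefore descriptions without a test, whereas the other 4 members were tested. All 5 passed the filter on low counts in each comparison. Their counts per library ran from 346 for Btg3 up to 9344 for Btg2. Of the related genes annotated beside them, Btg4 had 3 counts in 1 library and none in the other 11, and Btg1-ps1 and Btg1-ps2 had none.

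RNA was taken from mini-slices of wild-type male C57BL/6 mice aged 2 to 3 months, from which the dentate gyrus had been cut away. LTP slices received 50 uM forskolin, which activates adenylyl cyclase, for 5 min and then 5 min of forskolin with 30 mM KCl and 10 mM calcium, and control slices received 0.2% DMSO for 10 min. They were frozen 1 hr or 3 hr afterwards, giving 4 groups (control and LTP at 1 hr, control and LTP at 3 hr) of 3 libraries, each library from the slices of 1 animal and each animal giving both a control and an LTP library at its time point. The study prepared libraries only from slice sets in which Arc had risen by RT-qPCR, so the LTP groups are slices with a transcriptional response. The labels do not say whether the animals at 3 hr differ from those at 1 hr, so a like number at both times need not mean a like animal. Per the paper's methods, the slices of an animal were split between LTP and time-matched controls. Total counts ran from 37118382 to 50815001 per library. 1 hr control replicate 2, set aside in the study as an outlier of its clustering, was left out of the tests. It is part of the values per library, the means over 3 libraries and the ratios of animal 2 at 1 hr. The family sums, marker sums and correlations include it too. Markers of CA pyramidal neurons summed to between 2573 and 3973 CPM (counts scaled to the library total and by TMM), and those of dentate granule neurons still summed to between 112 and 213 CPM.

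BTG and TOB proteins share an N-terminal domain with which they bind CNOT7 and CNOT8, deadenylase subunits of the CCR4-NOT complex that shortens poly(A) tails. By bringing this complex to mRNAs bound by poly(A)-binding protein they promote deadenylation and decay, and in many cells they restrain proliferation. Btg2 is in addition an immediate early gene and a transcriptional target of p53, known from neurons and neural precursors. Tob1 and Tob2 carry long C-terminal tails with motifs that bind poly(A)-binding protein. The longest annotated coding sequences differ accordingly, at 474 bp for Btg2, 513 bp for Btg1, 756 bp for Btg3, 1035 bp for Tob2 and 1086 bp for Tob1. The longest stretch identical between any 2 of these coding sequences was 22 bp, shared by Btg2 and Btg3.

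The genes lie on separate chromosomes of GRCm38: Btg2 at chr1:134075170-134079120 on the minus strand, Btg1 at chr10:96617006-96622809 on the plus strand, Btg3 at chr16:78332637-78377192 on the minus strand, Tob1 at chr11:94211454-94215495 on the plus strand and Tob2 at chr15:81848272-81858796 on the minus strand. Btg1, Btg2 and Tob1 share no exonic base with another annotated gene. Btg3 shares 17.3% of its exonic bases with Cxadr, and Tob2 shares 4.34% with Gm49476, each on the opposite strand. Whether the counting used strand is not given in the sources used here, so the values of Btg3 and Tob2 are uncertain. Cxadr averaged 56.7 CPM over the libraries, more than Btg3 in any of them.

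Because forskolin raises cAMP, the promoter sequences of RefSeq (GRCm38.p6, from 250 bases before to 50 after each RefSeq start) were searched on both strands for 6 motifs. The first was the cAMP response element (CRE), TGACGTCA. The second was its short form with the letters TGACG, every full CRE holding 2 of these on opposite strands. The others were the AP-1 element with the letters TGANTCA, the TATA box with the letters TATAAA, the Egr element with the letters GCGGGNGCG, and the CArG box. All 5 members had a window, and Btg3 had 2. The full CRE was found in Btg2 alone of the 5, at bases -166 to -159 from the start, and 1.79% of 32851 promoter windows hold one. Short CREs, which occur in 20.8% of windows, were found in Btg1 (on the opposite strand, from -187 and from -103) and Tob1 (from -96), and those of Btg2 lay within its full CRE. TATAAA, in 13.6% of windows, was found in Btg1 and Tob1. AP-1 (7.81% of windows), Egr (5.8%) and CArG (1.63%) letters were found in none of the members. The windows of Btg3 and Tob2 held none of the 6 motifs. The Tob2 window (chr15:81858277-81858576) lay inside the annotated gene given above, so bases before its GENCODE start were not searched. A match is a description of letters and not a shown binding site. The stretches around the CRE letters are printed on the strand of each gene, with the matched letters in capitals.
Btg2, full CRE (chr1:134079304-134079331, minus strand): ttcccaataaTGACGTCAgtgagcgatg
Btg1, far short CRE (chr10:96616804-96616828, plus strand): aagcagattaCGTCAgctcctccct
Btg1, near short CRE (chr10:96616888-96616912, plus strand): aatctgcctgCGTCAcaatggtgcg
Tob1, short CRE (chr11:94211348-94211372, plus strand): ggcgggactgTGACGcgagcggcgc
The TATAAA letters of the 2 members that had them are shown in the same way.
Btg1, TATAAA (chr10:96616965-96616990, plus strand): tccgcagcccTATAAAatgagctgca
Tob1, TATAAA (chr11:94211397-94211422, plus strand): gggaggaggcTATAAAacgagaggcg

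Btg2 rose from a steady basal level to several times that level and had come part of the way back by 3 hr. The 1 hr controls held 32.6, 39.8 and 38.7 CPM, where 39.8 is the set-aside library, and the 1 hr LTP libraries held 227, 238 and 208 CPM. At 3 hr the controls held 36.3, 35.8 and 35 CPM and the LTP libraries 87.2, 94.8 and 88.2 CPM. Every LTP library exceeded every control library at both times, and the 3 hr LTP libraries lay wholly below those at 1 hr. The control groups overlapped each other, with means of 37.1 ± 3.89 CPM at 1 hr and 35.7 ± 0.619 CPM at 3 hr (SD, n = 3 each).

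The fitted log2 fold change of Btg2 in LTP against control was 2.66 (SE 0.0935) at 1 hr and 1.35 (SE 0.0605) at 3 hr, or 6.33-fold and 2.55-fold. Among genes averaging 1 CPM or more, it had the 5th highest log2 fold change of 14184 at 1 hr and the 18th highest of 14185 at 3 hr. Its LTP effect at 3 hr was smaller than at 1 hr by a log2 difference of -1.31 (SE 0.11). The LTP libraries alone fell by 1.34 (SE 0.0723) on the log2 scale between the times, against -0.03 (SE 0.0825) in the controls. Within animals, the log2 ratio of LTP to control at 1 hr was 2.80, 2.58 and 2.42 in animals 1, 2 and 3. At 3 hr it was 1.26, 1.40 and 1.33, so that the lowest ratio at 1 hr still exceeded the highest at 3 hr. These are the values by which the family was chosen.

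**Figure D1:**
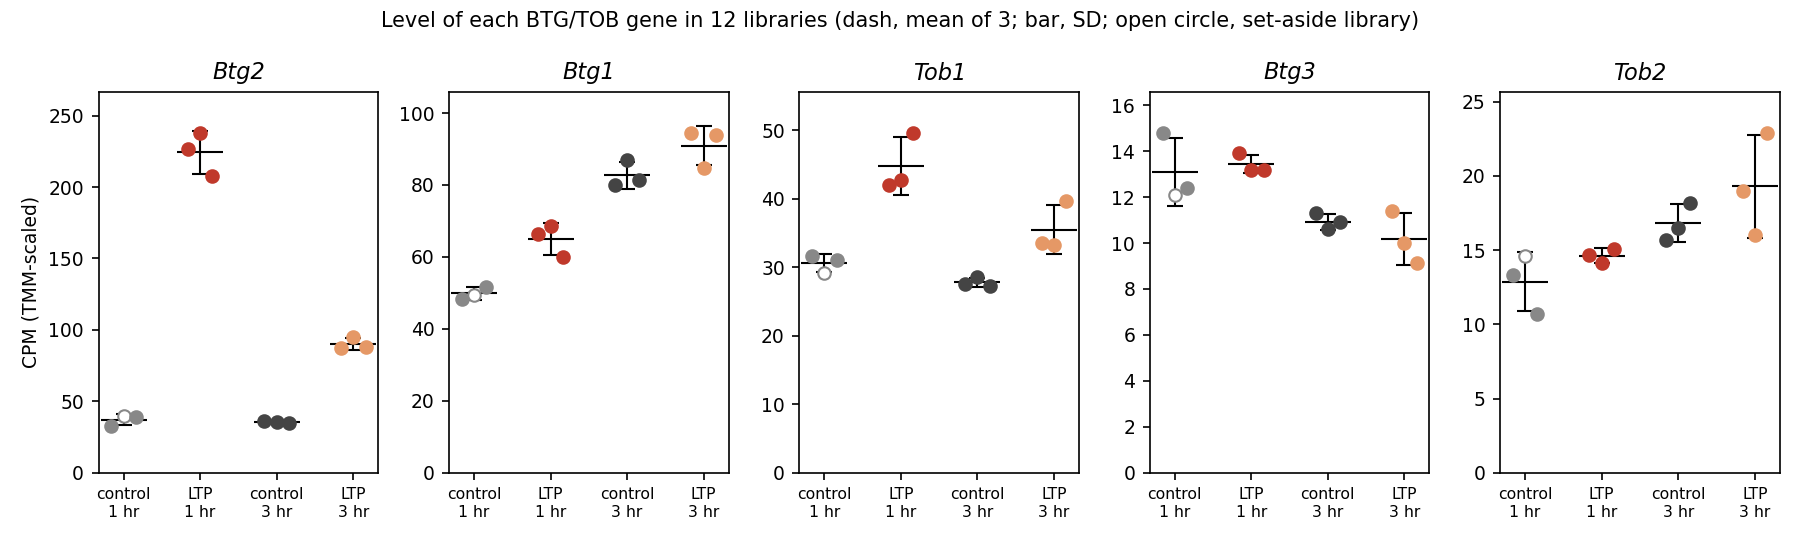
Level of each member in every library, in CPM on linear axes that start at 0 and differ between genes, with dashes for the mean of 3 libraries and bars for the SD. Btg2 stands at 208 to 238 CPM in 1 hr LTP libraries and at 87.2 to 94.8 CPM in 3 hr LTP libraries, over controls of 32.6 to 39.8 CPM; the open circle is the library set aside by the study.

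Btg1, the closest relative of Btg2 and a restraint on lymphocyte and stem cell proliferation, moved by far less with LTP. Its 1 hr controls held 48.4, 49.4 (set aside) and 51.7 CPM and its 1 hr LTP libraries 66.4, 68.7 and 59.9 CPM, without overlap. The log2 fold change was 0.39 (SE 0.0818, edgeR adjusted p = 0.0508), which passed. To pass, a gene needed an adjusted p below 0.1 together with a change of more than 1.2-fold. Of all 17736 genes tested at 1 hr, 0.789% passed. The ratio was above 0 in all 3 animals, at 0.46, 0.48 and 0.21. The call was lost without control replicate 1 (0.34, adjusted p = 0.671), control replicate 3 (0.43, adjusted p = 0.265) or LTP replicate 1 (0.37, adjusted p = 0.31), each of which leaves 4 libraries. With all 6 libraries, the call was kept without a block (0.39, adjusted p = 0.0345) and lost with the animal as a block (0.39, adjusted p = 0.184). It was kept with the block in the 5 fitted libraries (0.34, adjusted p = 0.0268), where only animals 1 and 3 give a pair. Over all alternatives the adjusted p ran from 0.000948 to 0.671.

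At 3 hr, Btg1 held 79.9, 86.9 and 81.3 CPM in controls and 94.5, 84.6 and 93.8 CPM in LTP libraries. These groups overlapped, and the log2 fold change of 0.15 (SE 0.0673, adjusted p = 0.254) did not pass. The LTP effects at the 2 times were not shown to differ (log2 difference -0.23, SE 0.106, adjusted p = 0.759), a test that 0.0592% of 18584 genes passed.

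Tob1, a partner of CCR4-NOT that also binds Smad proteins, rose with LTP at both times. It held 31.6, 29.1 (set aside) and 31.1 CPM in 1 hr controls and 42, 42.7 and 49.6 CPM in 1 hr LTP libraries, then 27.5, 28.5 and 27.3 CPM in 3 hr controls and 33.5, 33.3 and 39.6 CPM in 3 hr LTP libraries. At neither time did the groups overlap, as was so for 22.6% of genes at 1 hr and 27% at 3 hr. LTP replicate 3 was the highest LTP library at each time. The log2 fold change was 0.53 (SE 0.0889, adjusted p = 0.00892) at 1 hr and 0.37 (SE 0.0841, adjusted p = 0.0521) at 3 hr, where 6.6% of 17508 genes passed. The ratio was above 0 in 3 of 3 animals at 1 hr (0.41, 0.55 and 0.67) and in 3 of 3 at 3 hr (0.28, 0.22 and 0.54).

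The Tob1 effects at the 2 times were not shown to differ (log2 difference -0.15, SE 0.129, adjusted p = 0.924). The 1 hr call was lost without control replicate 1 (0.53, adjusted p = 0.165) or control replicate 3 (0.51, adjusted p = 0.173). The 3 hr call was lost without control replicates 1, 2 or 3 (0.36, 0.38 and 0.36, with adjusted p = 0.195, 0.206 and 0.153) or LTP replicate 1 (0.40, adjusted p = 0.131). Over all alternatives the adjusted p ran from 2.52e-06 to 0.173 at 1 hr and from 0.00452 to 0.206 at 3 hr.

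Tob2, the longer-transcript relative of Tob1, did not pass in either LTP comparison. It held 13.3, 14.6 (set aside) and 10.7 CPM in 1 hr controls and 14.7, 14.1 and 15.1 CPM in 1 hr LTP libraries, and the groups overlapped once the set-aside library was counted. At 3 hr the controls held 15.7, 16.5 and 18.2 CPM and the LTP libraries 19, 16 and 22.9 CPM, again with overlap. Its log2 fold changes were 0.30 (SE 0.115, adjusted p = 0.595) and 0.21 (SE 0.128, adjusted p = 0.387). The 3 hr value passed only without LTP replicate 2 (0.34, adjusted p = 0.0701), the lowest of the 3 LTP libraries, and over all alternatives ran from 0.07 to 0.34 with adjusted p from 0.0701 to 0.758.

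Btg3, also known as ANA and able to bind the same deadenylases, was near 0 in both LTP comparisons. It held 14.8, 12.1 (set aside) and 12.4 CPM in 1 hr controls and 13.9, 13.2 and 13.2 CPM in 1 hr LTP libraries, all within the range of the controls. At 3 hr it held 11.3, 10.6 and 10.9 CPM in controls and 11.4, 10 and 9.13 CPM in LTP libraries. The log2 fold changes were -0.00 (SE 0.11, adjusted p = 0.999) and -0.09 (SE 0.0975, adjusted p = 0.631). Cxadr, the adhesion receptor gene that shares exonic bases with Btg3 on the other strand, passed at 1 hr (0.35, SE 0.0772, adjusted p = 0.074) but not with the animal as a block in all 6 libraries (0.33, adjusted p = 0.262), and the part of its reads in the Btg3 counts was not tested. For Btg3 and Tob2, the LTP effects at 3 hr and 1 hr were not shown to differ (log2 differences -0.08 for each, SE 0.145 and 0.185, adjusted p = 0.971 and 0.985).

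Thus 2 of the 4 tested members passed at 1 hr, Btg1 and Tob1, and 1 at 3 hr, Tob1, all 3 calls being higher in LTP. Genes called higher were 0.778% of those tested at 1 hr and 5.07% at 3 hr. Ranked by log2 fold change among genes with at least 1 CPM, Tob1 exceeded 98% of genes at 1 hr and 93.4% at 3 hr, Btg1 96.4% and 78.5%, Tob2 94.4% and 84.9%, and Btg3 51.2% and 30.1%. In slices, fewer cells of a type and less RNA per cell cannot be told apart. Beside the 1 hr comparison, 5 endothelial markers summed to between 95.6 and 104 CPM in controls and 81.2 and 86.6 CPM in LTP libraries. Of these, 0 of 5 were called, 3 of 5 had an unadjusted p under 0.05 and the median log2 fold change was -0.24. Mural markers had a median of -0.29, with 2 of 4 at an unadjusted p under 0.05 and 1 of 4 called lower. That call, of Myh11, was lost without control replicate 1, control replicate 3 or LTP replicate 2, with control replicate 2 included and in the model of the 4 groups. Microglial markers summed to between 142 and 157 CPM in controls and 139 and 154 CPM in LTP libraries, with 0 of 5 called. Oligodendrocyte markers summed to between 4498 and 5470 CPM in controls and 5301 and 6343 CPM in LTP libraries, with 0 of 5 called, 3 of 5 at an unadjusted p under 0.05 and a median log2 fold change of 0.21. At 3 hr, 0 of 6 pyramidal markers were called. They summed to between 2898 and 3008 CPM in controls and 2573 and 3973 CPM in LTP libraries. Interneuron and astrocyte markers had 0 of 5 called each, with 2 and 1 at an unadjusted p under 0.05. Aqp4, an astrocyte marker, did not pass (-0.28, adjusted p = 0.152). It passed by DESeq2 (adjusted p = 0.0879) and with the animal as a block (adjusted p = 0.022). No marker of the other lists was called at 3 hr. The part of these markers in the member values was not tested.

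**Figure D2:**
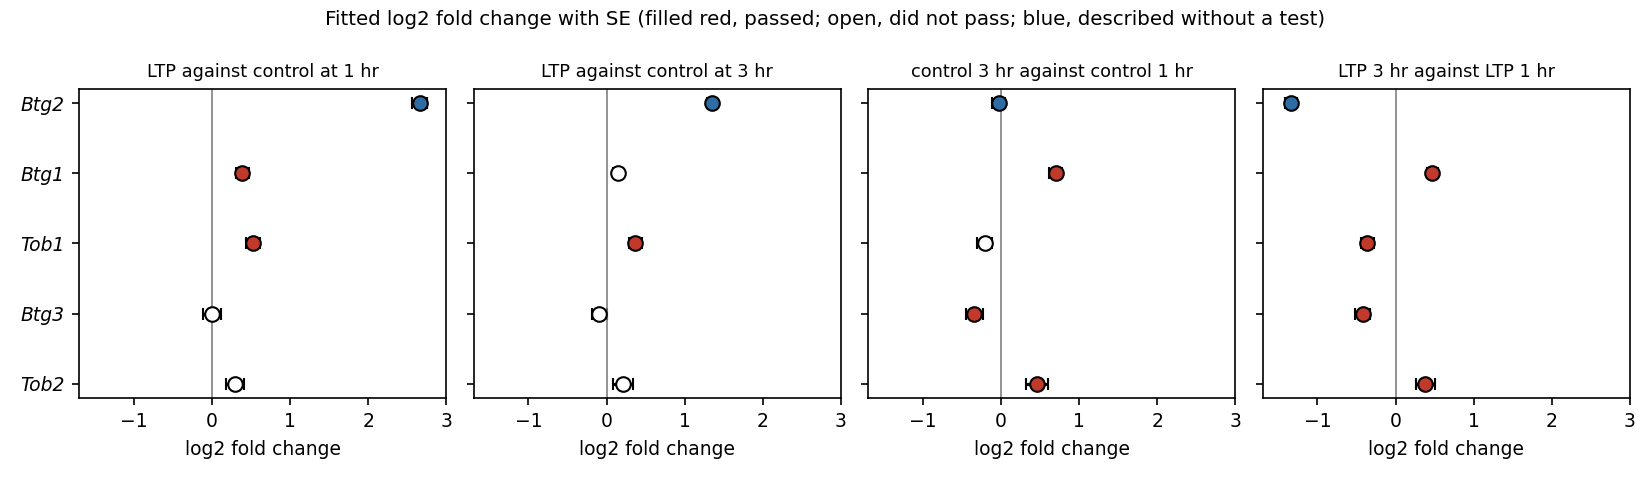
Fitted log2 fold change of each member in 4 comparisons, with bars for 1 SE; red points passed both thresholds, white points did not, and blue points (Btg2) carry no test. Btg2 lies at 2.66 and 1.35 with LTP and at -0.03 between the controls, whereas Btg1 lies at 0.39 and 0.15 with LTP and at 0.70 between the controls.

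The members also differed between slices kept for 3 hr and for 1 hr, and between the controls Btg1 had the largest change of the 5. From 1 hr to 3 hr controls, Btg1 was higher by a log2 fold change of 0.70 (SE 0.0809, adjusted p = 8.39e-05), beside 0.39 with LTP at 1 hr, a comparison that shares the 1 hr controls. All 3 hr control libraries of Btg1 exceeded all 1 hr LTP libraries. Tob2 was higher by 0.46 (SE 0.14, adjusted p = 0.0233) and Btg3 was lower (-0.34, SE 0.107, adjusted p = 0.0284). Tob1 (-0.21, SE 0.0959, adjusted p = 0.119) did not pass. Thus 3 of the 4 tested members were called, where 32.8% of all 18584 genes were. The groups did not overlap for any of the 4, as for 60.7% of genes.

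The LTP slices showed the same directions between the times. Btg1 was higher at 3 hr by 0.47 (SE 0.0708, adjusted p = 0.000311) and Tob2 by 0.38 (SE 0.122, adjusted p = 0.0257). Btg3 was lower (-0.42, SE 0.0971, adjusted p = 0.00455), and so was Tob1 (-0.36, SE 0.0853, adjusted p = 0.00545). All 4 tested members were called, against 35.9% of genes, and none of the 4 overlapped between the times, as for 44.9% of genes. Tob1 was thus called among LTP slices and not among controls, but the test of that difference, given above, did not pass.

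The time comparison rests on libraries that also differ in time since slicing and possibly in animal, which cannot be told apart. The Btg3 control call was lost without 1 hr control replicate 1 (-0.16, adjusted p = 0.398) or 3 hr control replicate 2 (-0.29, adjusted p = 0.11), and in a fit with 1 hr control replicate 2 it fell short of the fold threshold (-0.26, adjusted p = 0.0723). The Tob2 control call was lost without 1 hr control replicate 3 (0.35, adjusted p = 0.186). Among LTP slices, the Tob1 call fell short of the fold threshold without 1 hr LTP replicate 3 (-0.25, adjusted p = 0.0408) and the Tob2 call was lost without 3 hr LTP replicate 3 (0.25, adjusted p = 0.107). Btg1 kept its call in all 19 alternatives of each time comparison. Microglial markers moved with time as well, from between 142 and 157 CPM in 1 hr controls to between 99.6 and 112 CPM in 3 hr controls, with 4 of 5 called lower. Oligodendrocyte markers went from between 4498 and 5470 CPM to between 6209 and 7624 CPM, with 3 of 5 called higher. Mural markers went from between 141 and 157 CPM to between 107 and 115 CPM (3 of 4 called lower), endothelial markers from between 95.6 and 104 CPM to between 82 and 85.7 CPM (3 of 5 called lower), and immature neuron markers from between 29.9 and 31.9 CPM to between 25.2 and 26.9 CPM (2 of 3 called lower, but 0 by DESeq2 and 0 or 1 in each of the 19 alternatives). Between LTP groups, 4 of 5 microglial and 3 of 4 mural markers were called lower, the mural count being 1 without 1 hr LTP replicate 1, and 3 of 5 oligodendrocyte markers higher. Endothelial markers differed from the control comparison, with 1 called higher and 1 lower (median 0.02). Of the neuronal markers, 1 of 3 for immature neurons and 2 of 5 for interneurons were called lower, and 1 of 6 for pyramidal neurons in each direction. Between controls, 1 of 5 interneuron markers was called lower and 1 of 6 pyramidal markers in each direction. In both time comparisons 1 of 5 astrocyte markers was called lower, and 1 of 2 oligodendrocyte precursor and 1 of 6 cycling cell markers higher. Of all genes, 32.8% were called between controls and 35.9% between LTP groups. No marker of these lists was at 0. Their part in the time differences of the members was not tested.

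To compare levels between genes, CPM were divided by the length of annotated exons. On this scale of CPM per kb, Btg2 and Tob1 led in 1 hr controls at 13.5 ± 1.42 and 13.4 ± 0.576 (SD, n = 3), did not differ beyond their spread, and were followed by Btg1 at 9.44 ± 0.323, Btg3 at 3.27 ± 0.367 and Tob2 at 1.93 ± 0.3. In 1 hr LTP libraries Btg2 stood at 81.8 ± 5.49, Tob1 at 19.6 ± 1.84, Btg1 at 12.3 ± 0.866, Btg3 at 3.35 ± 0.101 and Tob2 at 2.2 ± 0.0818, with no overlap between neighbours. The level of Btg2 exceeded that of 80.2% of 18414 genes in 1 hr controls and of 97.7% in 1 hr LTP libraries.

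In 3 hr controls Btg1 led the levels at 15.7 ± 0.7 CPM per kb, above Btg2 at 13 ± 0.226 and Tob1 at 12.1 ± 0.28, while Btg3 at 2.73 ± 0.0884 and Tob2 at 2.52 ± 0.19 overlapped. In 3 hr LTP libraries Btg2 led at 32.8 ± 1.5, Btg1 at 17.2 ± 1.05 and Tob1 at 15.5 ± 1.56 overlapped, and so did Tob2 at 2.9 ± 0.519 and Btg3 at 2.53 ± 0.28. The paper describes an analysis limited to reads over coding bases, and which bases were counted in these tables is not certain. Divided by coding length instead, Btg1 led both control groups (97.1 ± 3.3 against 78.1 ± 8.18 for Btg2 at 1 hr, and 161 ± 7.22 against 75.3 ± 1.38 at 3 hr, in CPM per coding kb). On that scale Btg2 led 1 hr LTP libraries at 473 ± 32 and overlapped Btg1 in 3 hr LTP libraries (190 ± 8.71 and 177 ± 10.8).

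The summed level of the family was 41.5 ± 0.873 CPM per kb in 1 hr controls, 119 ± 4.65 in 1 hr LTP libraries, 46.1 ± 0.891 in 3 hr controls and 71 ± 1.68 in 3 hr LTP libraries. Btg2 made up 32.5%, 68.6%, 28.3% and 46.3% of these sums, and 87.9% of the difference of LTP from control at 1 hr and 79.5% at 3 hr. The sum was 2.87-fold higher in LTP at 1 hr and 1.54-fold higher at 3 hr. Without Btg2 the sum was 1.34-fold and 1.15-fold higher. Btg1 and Tob1 made up 22.7% and 32.2% of the sum in 1 hr controls and 34% and 26.3% in 3 hr controls. Per coding length these shares were 41.7% and 12.1% at 1 hr and 55% and 8.73% at 3 hr, so that the order of Btg1 and Tob1 in 1 hr controls depends on the length used, whereas Btg1 stood above Tob1 on both scales in 3 hr controls. Btg2 made up 70.3% of the sum in 1 hr LTP libraries on that scale. The Btg2 shares follow from the choice of Btg2 and are a description.

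**Figure D3:**
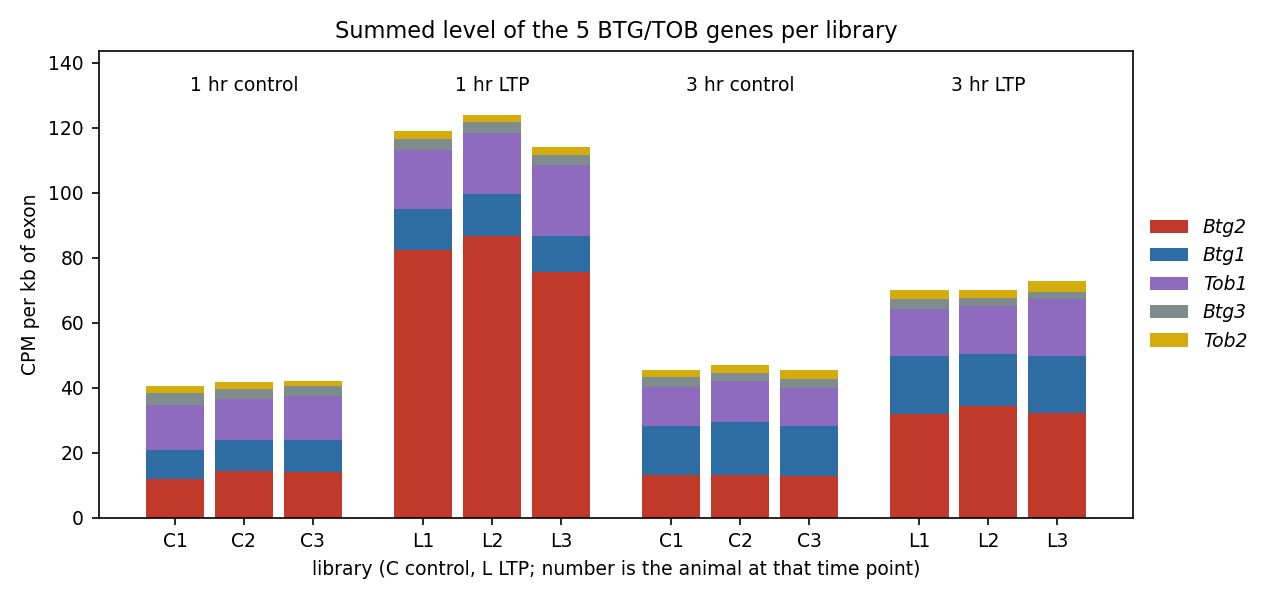
Stacked bars of the 5 members in each library, in CPM per kb of annotated exon from 0, with 3 libraries per group. The Btg2 part is 66.3% to 70% of the bar in the 1 hr LTP libraries and 29.3% to 34.7% in the 1 hr controls.

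Genes with profiles most like each member were taken by Pearson's r of log2(CPM + 0.1) over the 12 libraries, among the 14185 genes averaging 1 CPM or more. These libraries share the same LTP and time groups, so a high r follows from any like response to them. Btg2 was most like Egr2 (r = 0.987), Dusp6 (0.984), 1700016P03Rik (0.982), Npas4 (0.969) and Errfi1 (0.964). Egr2 and Npas4 are activity-induced transcription factors, and Dusp6 and Errfi1 are feedback inhibitors of ERK and of EGF receptor signalling. Mean levels of Egr2 went from 11.6 CPM in controls to 61.7 CPM in LTP libraries at 1 hr and from 12.3 to 32.3 CPM at 3 hr, and those of Npas4 from 25.4 to 134 CPM and from 21.3 to 57 CPM. Both showed the order of Btg2, highest in 1 hr LTP, intermediate in 3 hr LTP and low in both controls.

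Among the members, Tob1 was the most like Btg2 (r = 0.919), and its own nearest genes were Npas4 (0.955) and Dusp6 (0.92). Btg1 was nearer Tob2 (r = 0.803) than Btg2 (0.119), with Kctd12 (0.969) and Rtp4 (0.967) the most alike of all genes. Tob2 was most like Ttll3 (0.97) and Irs2 (0.967), the latter an adaptor of insulin receptor signalling. Btg3 ran against Btg1 (r = -0.763) and was most like Frmd4b (0.969) and Fam184b (0.951). The r of Btg3 and Tob2 with Btg2 were 0.217 and 0.0887.

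Of genes within 100 kb of the members, 16 were tested at 1 hr and 1 was called, the overlapping Cxadr, and 15 were tested at 3 hr and 0 were called by edgeR or DESeq2, with 2 at an unadjusted p under 0.05 by edgeR. Of all genes, 0.789% were called at 1 hr and 6.6% at 3 hr. The call of Cxadr was lost without 1 hr control replicate 1, control replicate 3 or LTP replicate 1, with the animal as a block in all 6 libraries, in the model of the 4 groups and with scaling by total counts alone (adjusted p from 0.104 to 0.691), and 1 neighbour was called at 3 hr without LTP replicate 2. Next to Btg2, Fmod (-0.86, SE 0.468, adjusted p = 0.82) and Gm8618 (1.02, SE 0.63, adjusted p = 0.877) were not called at 1 hr, both at a mean under 1 CPM. Next to Tob1, the abundant Spag9 (-0.03, SE 0.0652) and Luc7l3 (-0.04, SE 0.0798) were not called either. No tested gene lay within 100 kb of Btg1.

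The CCR4-NOT complex itself, which BTG and TOB proteins recruit, was tested through 11 subunits. At 1 hr 0 were called by edgeR, against 0.789% of all genes, 0 had an unadjusted p under 0.05 and the median log2 fold change was -0.01, against -0.00 over all genes. At 3 hr 1 was called higher and 1 lower, where 5.07% of all genes were called higher and 1.53% lower (median -0.02, all genes -0.00): Cnot4, an E3 ligase subunit (0.33, SE 0.0676, adjusted p = 0.0368), and Cnot11 (-0.27, SE 0.0737, adjusted p = 0.0828). Cnot1, the scaffold, held 197 ± 5.98 CPM in controls and 196 ± 3.84 CPM in LTP libraries at 1 hr, and 184 ± 1.25 and 192 ± 1.94 CPM at 3 hr. Cnot7, a deadenylase the family binds, held 118 ± 4.89 and 117 ± 3.86 CPM at 1 hr and 107 ± 7.22 and 104 ± 10.2 CPM at 3 hr (SD, n = 2 fitted libraries for 1 hr controls and 3 elsewhere). Its paralogue Cnot8 held 50.4 ± 1.26 and 47.8 ± 1.55 CPM at 1 hr and 44.8 ± 0.476 and 39.6 ± 3.7 CPM at 3 hr, and was not called at either time (3 hr -0.16, SE 0.0802, adjusted p = 0.295). At 3 hr the count of called subunits was 0 without any 1 of control replicates 1, 2 and 3 or LTP replicate 1, and 3 without LTP replicate 2. Of 7 other deadenylases and poly(A)-binding proteins, 0 were called at either time, with medians of 0.04 and 0.10 and 1 unadjusted p under 0.05 at each time.

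Other proteins that recruit deadenylases gave 1 call higher of 16 tested at 1 hr and 5 higher and 0 lower at 3 hr. The 1 hr call was Zfp36l1, which binds AU-rich elements (0.51, SE 0.116, adjusted p = 0.0873). At 3 hr the calls were Cpeb4 (0.29, SE 0.0497, adjusted p = 0.0192), Cpeb3 (0.51, SE 0.0877, adjusted p = 0.0195), Cpeb2 (0.41, SE 0.0916, adjusted p = 0.0476), Tnrc6b (0.40, SE 0.0957, adjusted p = 0.0576) and Tnrc6c (0.36, SE 0.0936, adjusted p = 0.0769). Cpeb proteins bind cytoplasmic polyadenylation elements, and Tnrc6 proteins link microRNAs to deadenylases. Of all genes, 0.778% were called higher at 1 hr and 5.07% at 3 hr. The medians were 0.09 at 1 hr and 0.17 at 3 hr, against -0.00 over all genes at each time. None of the 16 had a called difference between the LTP effects at the 2 times, though 6 had an unadjusted p under 0.05 (edgeR), against 0.0592% of all genes called and 1225 of 18584 at that unadjusted p. Without 3 hr control replicate 2, 0 of the 16 were called at 3 hr, and without any 1 of the libraries at 1 hr other than LTP replicate 3, 0 were called at 1 hr. With the animal as a block in the 5 fitted libraries 2 were called at 1 hr, Zfp36 being the second. That fit pairs only animals 1 and 3, and with the block in all 6 libraries 0 were called.

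Btg2 was first cloned as TIS21, one of a set of sequences induced by a phorbol ester, and 6 others of that set were tested. Of these, 5 were called higher at each time, against 0.778% of all genes at 1 hr and 5.07% at 3 hr, with medians of 1.17 and 0.86. Fos changed by 1.97 (SE 0.0773, adjusted p = 1.67e-09) at 1 hr and 1.48 (SE 0.0828, adjusted p = 0.000109) at 3 hr, and Nr4a1 by 1.70 (SE 0.0829, adjusted p = 1.53e-08) and 1.09 (SE 0.161, adjusted p = 0.0111). Egr1 changed by 1.31 (SE 0.0895, adjusted p = 8.12e-07) and 1.27 (SE 0.232, adjusted p = 0.025). Ptgs2, an inducible prostaglandin synthase, changed by 1.03 and 0.64, and Ifrd1, a transcriptional coregulator, by 0.54 and 0.51. Zfp36 did not pass, at 0.39 (adjusted p = 0.131) and 0.20 (adjusted p = 0.677). Its 1 hr value passed by DESeq2 (adjusted p = 0.0703) and without a filter beyond 1 count (adjusted p = 0.0539). With the animal as a block it passed in the 5 fitted libraries (0.37, adjusted p = 0.0955), where only animals 1 and 3 give a pair. It did not with the block in all 6 libraries (0.36, adjusted p = 0.391). Without 3 hr control replicate 2 or 3, 3 of the 6 were called at 3 hr. By edgeR none of these 6 had a called difference between the LTP effects at the 2 times (3 with an unadjusted p under 0.05, median -0.29), while DESeq2 called 1, and this list, like the family, was drawn up with earlier results of these data known.

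Btg2 is a target of p53, and 17 others were tested. At 1 hr 2 were called higher and 0 lower (median 0.05), against 0.789% of all genes in either direction, Plk3 (0.65, SE 0.0922, adjusted p = 0.00221) and Plk2 (0.44, SE 0.0671, adjusted p = 0.00378), kinases that neuronal activity is also known to induce. At 3 hr 2 were called higher, Plk2 (0.37, SE 0.0879, adjusted p = 0.0586) and Gadd45a (0.33, SE 0.0924, adjusted p = 0.0923). The 2 called lower at 3 hr were the cell death genes Bbc3 (-0.87, SE 0.172, adjusted p = 0.0322) and Bax (-0.32, SE 0.0691, adjusted p = 0.0408), with a median of -0.03 over the list. Without control replicate 2, control replicate 3 or LTP replicate 1, 0 of the list were called at 3 hr, whereas 6 were with the animal as a block, by DESeq2, in the model of the 4 groups or without LTP replicate 2. At 1 hr the Plk2 call was lost without control replicate 1 (0.38, adjusted p = 0.243) and the Plk3 call with control replicate 2 included (0.43, adjusted p = 0.307). At 3 hr 6.6% of all genes were called in either direction. Cdkn1a, the p53 target that arrests the cell cycle, stood at 0.17 (SE 0.171, adjusted p = 0.94) and 0.33 (SE 0.24, adjusted p = 0.477).

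Of 10 cell cycle genes that the family restrains or acts beside, 0 were called at 1 hr by edgeR (1 with an unadjusted p under 0.05, median -0.00) and 1 lower at 3 hr (median -0.07), against 0.789% of all genes called at 1 hr and 1.53% called lower at 3 hr. This was Ccne2, a cyclin of S-phase entry (-0.78, SE 0.124, adjusted p = 0.015). DESeq2 called 1 of the list at 1 hr, as did edgeR without LTP replicate 3, and at 3 hr 2 were called without LTP replicate 3. Ccnd1, the cyclin whose repression by Btg2 is best known, stood at 0.11 (SE 0.074, adjusted p = 0.887) and -0.04 (SE 0.0614, adjusted p = 0.736). Markers of cycling cells summed to between 9.52 and 12.2 CPM over all libraries, with 0 of 6 called in either LTP comparison. Of 5 tested binding partners of the family (Smad1, Smad4, Smad5, Smad9 and Erbb2), 0 were called at either time by edgeR and 0 had an unadjusted p under 0.05. Hoxb9 was at 0 CPM and was not tested.

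**Figure D4:**
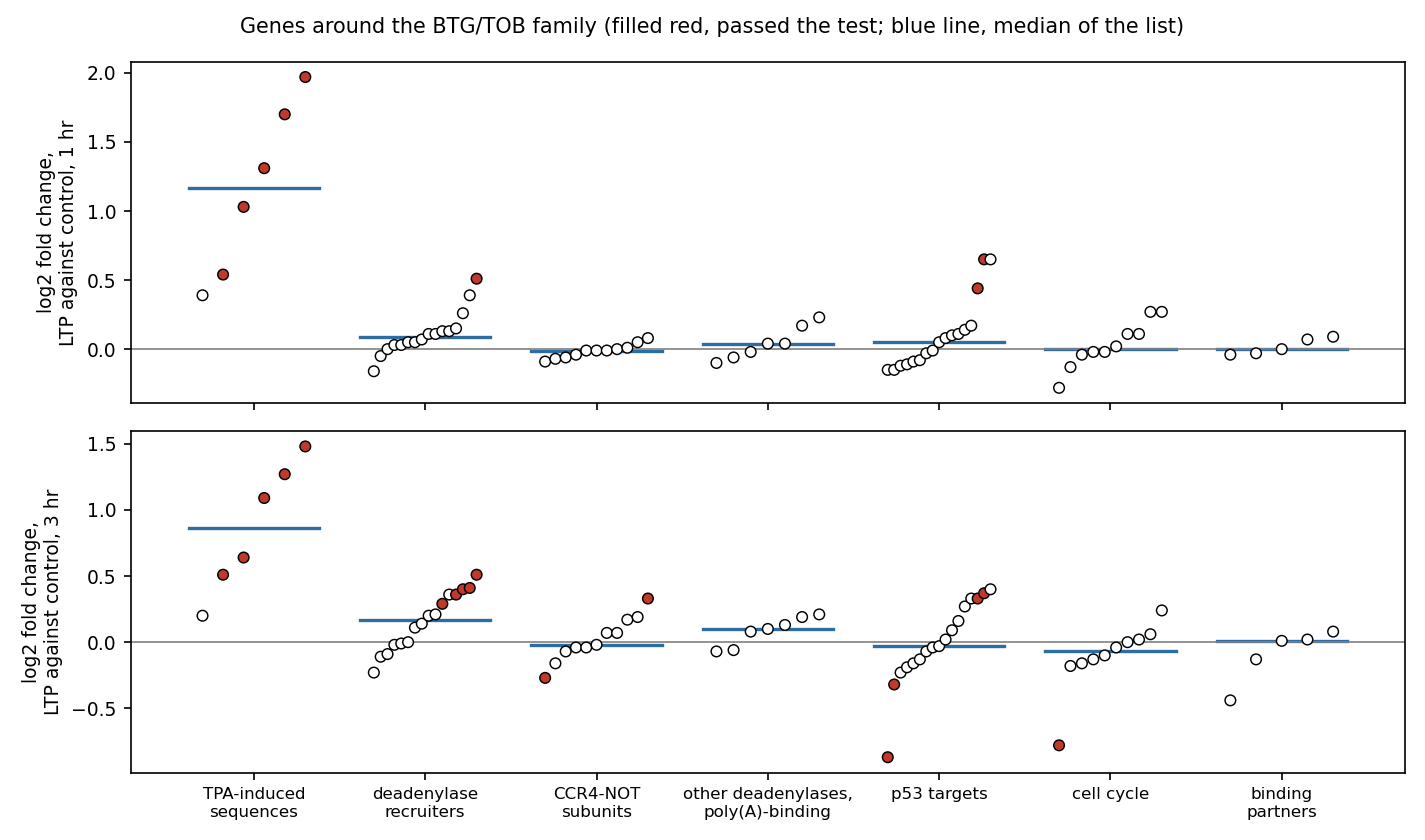
Log2 fold change of LTP against control at 1 hr (upper) and 3 hr (lower) for each tested gene of 7 lists around the family; red points passed, white points did not, and blue lines are list medians. The 6 phorbol ester-induced sequences have medians of 1.17 and 0.86, whereas the 11 CCR4-NOT subunits have medians of -0.01 and -0.02.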

How the data were processed

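Stranded total RNA-seq of 12 libraries was analysed. Per its methods, the authors removed ribosomal RNA, mapped reads to GRCm38 (mm10) by STAR and counted them per gene with Bioconductor packages. The deposited values are raw counts per gene, not normalized, in 1 table per time point. Strand use and the treatment of multiply aligned reads are not given in the sources used here. Submitters' processing notes name DESeq2.

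Of 41091 IDs, 40217 matched GENCODE M21 without their version. edgeR 4.0.16 (R 4.3.3) was run on the counts by quasi-likelihood, with its filterByExpr step, TMM factors and Benjamini-Hochberg adjustment over all genes tested. A call needed an adjusted p below 0.1 with a change above 1.2-fold, the study's thresholds, and the difference between time points needed the adjusted p alone. The 1 hr fit used 5 libraries, the 3 hr fit 6, and comparisons across time 11 in a model of the 4 groups. SE was obtained as the absolute log2 fold change divided by the square root of the quasi-likelihood F statistic. For Btg2 it is given as a description and not as a test. For ratios per animal, 0.1 CPM was added. A floor of 3 counts equals 0.059 to 0.0808 CPM. Members had from 346 to 9344 counts per library, so counting error relative to the level is largest for Btg3 and Tob2, which had the fewest. Its part in their spread between libraries was not tested.

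LTP and control libraries of a number come from the same animal within a time point, per the labels. The correlations of their deviations from group means across genes were -0.015, -0.156 and 0.075 at 1 hr and 0.038, -0.028 and 0.218 at 3 hr. Fits with the animal as a block were alternatives, as were DESeq2 1.42.0, limma-voom (limma 3.58.1), other scalings and filters, and leaving out each replicate. At 1 hr, the block without control replicate 2 pairs only animals 1 and 3. Levels per coding length were added after seeing the data. The fitting code was tested on simulated data. No replicate pair agreed within counting noise (chi-square per degree of freedom of 9.49 or more). The highest was 85.6, for 3 hr LTP replicates 2 and 3, beside 47 and 63.3 for pairs with the set-aside library.

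The members and the gene lists were chosen with earlier results of these data known. Genes named were the members, from each list up to 4 called genes by p and up to 2 uncalled, the 5 genes most like Btg2 and 2 most like each other member, and neighbours within 100 kb. Ifrd1, Tnrc6c, Cnot8, Cdkn1a and Ccnd1 were named outside this rule after their values were seen. Sequences came from RefSeq promoter windows (GRCm38.p6). The listed symbols Samd4b, Prmt1 and Smad8 matched no gene ID and were not analysed under those names.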

Additional observations from a re-analysis of the deposited data

How the results depend on the processing

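Of 566 alternative values, 514 kept their direction and their side of the threshold or stayed within the spread. Btg2 did so in all of its LTP fits, at 2.54 to 2.79 at 1 hr and 1.32 to 1.37 at 3 hr. Leaving out 1 library at a time gave 69 to 344 called genes at 1 hr (140 with all fitted libraries), 228 to 2170 at 3 hr (1155) and 1 to 67 for the difference between times (11). The lowest counts came without 1 hr control replicate 1, 3 hr control replicate 2 and 1 hr control replicate 3, and the highest without 1 hr LTP replicate 3, 3 hr LTP replicate 2 and 3 hr LTP replicate 2. Without a filter beyond 1 count, 347 genes were called at 1 hr and 102 for the difference, for which DESeq2 called 80 and the replicate block with 1 hr control replicate 2 called 7.

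For LTP at 1 hr without 1 library each, Btg1 ran from 0.34 to 0.44, Tob1 from 0.45 to 0.57, Tob2 from 0.15 to 0.46 and Btg3 from -0.13 to 0.13, and Tob2 stood at 0.19 with 1 hr control replicate 2. Tob1 at 3 hr ran from 0.27 to 0.42, Tob2 from 0.07 to 0.34 and Btg3 from -0.18 to -0.03. The difference between times ran from -0.25 to -0.06 for Tob1, from -0.25 to 0.02 for Btg3 and from -0.27 to 0.04 for Tob2. Between controls Btg3 ran from -0.43 to -0.16 and Tob2 from 0.35 to 0.66, and between LTP groups Tob1 ran from -0.44 to -0.25 and Tob2 from 0.25 to 0.50. Lost calls of the members are named beside their results above, and those of the pathway lists are given there mostly as counts.

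Btg3 at 1 hr, near 0, changed sign with limma-voom (0.00), with the animal as a block (0.01), with 1 hr control replicate 2 (0.05) and with both of these (0.05). Including that library turned the difference between times of Tob2 to 0.02 and brought Btg3 between controls to -0.26. The block with that library left Btg1 at 1 hr at 0.39 without a call, and blocking by animal changed no other call of a member, though it did so for list genes named above. Per coding length, the Btg2 share of the family sum was 33.5%, 70.3%, 25.7% and 44% in the 4 groups, of which that of 3 hr controls moved beyond its spread (28.3% per exonic length). The causes were not tested. No alternative tested depth, and counts per library were lowest for Btg3 and Tob2.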
